A study of Mus musculus with 9 samples.

Results

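The genes described here were the homeodomain and homeodomain-associated regional transcription factors of neuroglial progenitors from the third ventricular zone (TVZ) of the mouse, the lining of the third ventricle. They were every row of the expression table whose symbol joined a digit to one of the family names Lhx-, Pax-, Six-, Otx-, Dlx-, Nkx-, Meis-, Pbx-, Irx-, Emx-, Pou-, Tshz-, Zfhx-, Pknox-, Barhl-, Cux-, Onecut- and Satb-. Lhx2, Nkx2-1, Nkx2-2, Six3 and Six6 were left out. The pattern matched 58 symbols, and 53 of the 18329 listed genes remained as members, of which 45 were protein-coding family genes and 8 were antisense or opposite-strand transcripts named after one. By family they were 9 POU, 7 DLX, 4 PBX, 4 ZFHX, 3 each of MEIS, TSHZ, OTX, NKX and IRX, 2 each of CUX, EMX, PKNOX, SATB, BARHL and the SIX-family, and 1 each of PAX and LHX.

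All 9 libraries came from untreated Nestin-CFPnuc mice on a C57/BL6 background at postnatal day 1, in which the Nestin promoter drives a cyan fluorescent protein, and the labels of these 9 libraries give no Nf1 mutation. TVZ cells were sorted for the fluorescent protein and for CD133 into CD133+Nestin+, Nestin+ and CD133+ populations, with 3 libraries each, and total RNA was sequenced on an Illumina HiSeq. "Nestin+" thus means activity of a transgene promoter. Each label gives a sort number and an equal passage number, used here as the replicate number. Sort and passage therefore cannot be told apart. The labels do not say whether the cells sorted on one marker lacked the other, nor whether the replicates are separate animals or cultures. The p-values therefore refer to the variation among these 9 libraries, and that variation may be technical. The comparison asks how the progenitor populations of 1 niche differ from each other in their regional transcription factors.

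Homeodomain proteins bind DNA through a conserved helical fold, and in the embryonic brain their combinations mark position along and across the neural tube. PBX, MEIS and PKNOX proteins belong to the TALE class and bind DNA together with each other and with other homeodomain proteins. POU proteins add a second DNA-binding domain to the homeodomain. In the hypothalamus and the adjoining forebrain these factors set regional identity before birth, and many remain expressed in glia and neurons afterwards.

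Values were taken as CPM, read counts scaled to a common library total, a unit inferred from the numbers, in which 1 read was worth 0.0285 to 0.0344 CPM. Changes are differences of log2(CPM + 1) from 1 limma fit of all groups over 16143 genes, with p-values adjusted over all of them by the Benjamini-Hochberg method, and a change was called at an adjusted p under 0.05. Genes had to reach 1 CPM in at least 3 libraries. Of the 53 members 46 did and 7 did not, among them Barhl1, Dlx1as, Dlx2, Irx3, Lhx1os and Nkx6-1. A level of 3 reads was 0.0856 to 0.103 CPM, which covers counting error only.

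The markers used for sorting followed the labels. Prom1, which encodes CD133, was at 116 to 181 CPM in CD133+Nestin+ libraries, 39.3 to 58.1 CPM in Nestin+ libraries and 146 to 182 CPM in CD133+ libraries. Nes was at 172 to 212, 157 to 195 and 39.5 to 57.3 CPM in the same order of populations. Other markers also differed between populations. Summed ependymal markers (8 of 8 listed) were at 1220 to 1730 CPM in CD133+Nestin+, 258 to 331 CPM in Nestin+ and 1510 to 3000 CPM in CD133+ libraries. Summed microglia and macrophage markers (10 of 10) were at 41.6 to 313, 35.9 to 103 and 1050 to 2750 CPM, and endothelial markers (4 of 7) at 26.9 to 35.6, 14.5 to 24.7 and 330 to 648 CPM. Oligodendrocyte precursor markers (7 of 8) were at 123 to 461, 595 to 1090 and 67.6 to 144 CPM, and neuron markers (9 of 12) at 278 to 338, 444 to 573 and 199 to 257 CPM. In bulk samples fewer cells of a type and less RNA per cell cannot be told apart. One library stood apart: CD133+Nestin+ replicate 2 scored 108 on the second principal component, against -57.1 to 19.3 for the other 8. It held the highest of the 9 values for 18 of the 46 tested members (39.1%), and for 17.1% of all tested genes, so calls that involve the CD133+Nestin+ group are also given without it below.

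**Figure D1:**
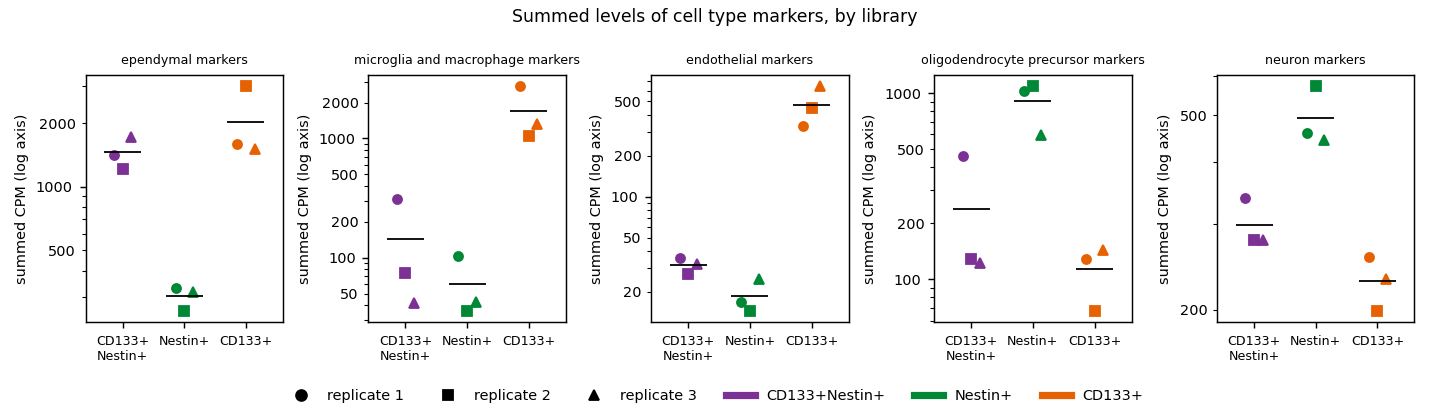
Summed CPM of the markers of 5 cell types (vertical log axes) in each library, by population; marker shapes are replicates and bars are group means. Ependymal markers were lowest in Nestin+ libraries, microglia and endothelial markers were highest in CD133+ libraries, and oligodendrocyte precursor and neuron markers were highest in Nestin+ libraries.

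The promoters of 4 called members are printed because these genes make up the opposed patterns described next: Dlx4os and Pbx4 were low in Nestin+ cells, Pax6 was high in CD133+ cells and Pou3f3 was high in Nestin+ cells. Each runs from 250 bases before to 50 after a RefSeq transcript start (GRCm38.p6), 5′ to 3′, and all 4 lie on the plus strand. The Dlx4os window, chr11:95144803-95145102, lies inside the Dlx4 gene, which is on the minus strand. The others are Pbx4 at chr8:69832374-69832673, Pax6 at chr2:105682213-105682512 and Pou3f3 at chr1:42695518-42695817. Pax6 has another listed start, whose window (chr2:105668646-105668945) held none of the motifs searched for here. Capitals mark a forkhead motif (GTAAACA) or the 6-base core bound by MEIS and PKNOX proteins (TGACAG, here read on the opposite strand as CTGTCA).
Dlx4os: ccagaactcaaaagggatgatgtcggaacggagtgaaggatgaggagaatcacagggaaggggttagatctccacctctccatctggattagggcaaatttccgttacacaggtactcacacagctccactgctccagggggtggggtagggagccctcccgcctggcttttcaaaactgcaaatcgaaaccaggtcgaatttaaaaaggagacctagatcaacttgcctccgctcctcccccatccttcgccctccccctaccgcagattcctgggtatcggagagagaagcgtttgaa
Pbx4: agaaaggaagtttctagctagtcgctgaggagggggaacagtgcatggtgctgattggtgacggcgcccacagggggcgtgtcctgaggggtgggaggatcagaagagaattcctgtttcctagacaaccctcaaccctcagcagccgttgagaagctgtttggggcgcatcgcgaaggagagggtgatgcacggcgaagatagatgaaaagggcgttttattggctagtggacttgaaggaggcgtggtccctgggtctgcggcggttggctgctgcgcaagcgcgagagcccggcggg
Pax6: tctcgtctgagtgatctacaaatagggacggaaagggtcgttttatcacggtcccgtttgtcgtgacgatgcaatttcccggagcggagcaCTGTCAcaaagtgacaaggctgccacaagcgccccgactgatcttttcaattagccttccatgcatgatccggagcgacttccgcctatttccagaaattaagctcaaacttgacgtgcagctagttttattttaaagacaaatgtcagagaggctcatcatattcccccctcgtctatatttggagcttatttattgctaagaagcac
Pou3f3: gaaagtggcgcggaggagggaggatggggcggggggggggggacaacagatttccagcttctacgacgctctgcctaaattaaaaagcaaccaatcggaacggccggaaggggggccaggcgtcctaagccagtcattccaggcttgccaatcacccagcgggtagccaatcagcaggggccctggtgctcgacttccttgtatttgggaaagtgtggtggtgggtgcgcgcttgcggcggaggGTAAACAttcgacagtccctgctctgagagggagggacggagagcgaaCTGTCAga

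RefSeq promoters were matched for 37 members, 50 in all, and searched on both strands for 6 motifs. The X-box of RFX factors, a motif of cilium genes, was in 0 of the 50 and in 2.17% of all 32851 promoters. The forkhead motif was in 2 of the 50 and in 3.65% of all. The homeodomain core TAATTA was in 6 and in 5.29%, the MEIS and PKNOX core in 6 and in 19.2%, the PBX and MEIS composite TGATTGAC in 1 and in 0.77%, and the POU octamer ATGCAAAT in 0 and in 1.74%. A match is a description of letters in the window, and members were too few for a comparison of these shares.

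Nestin+ cells differed from CD133+ cells in 9 of the 46 tested members. Pou3f1, Pou3f3, Pknox2, Dlx1 and Cux2 were higher, and Dlx4, Dlx4os, Pbx4 and Pax6 were lower. That is 19.6% of the tested members, where 11.9% of all tested genes were called. The split differed from that of all genes: 5 members (10.9%) were higher against 2.45% of genes, and 4 (8.7%) were lower against 9.42%. The median change was 0.29 over the members and -0.02 over all tested genes, with 31 members above and 15 below 0. Members pass the filter more easily where a group is high, so these shares describe the tested members and not the families.

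**Figure D2:**
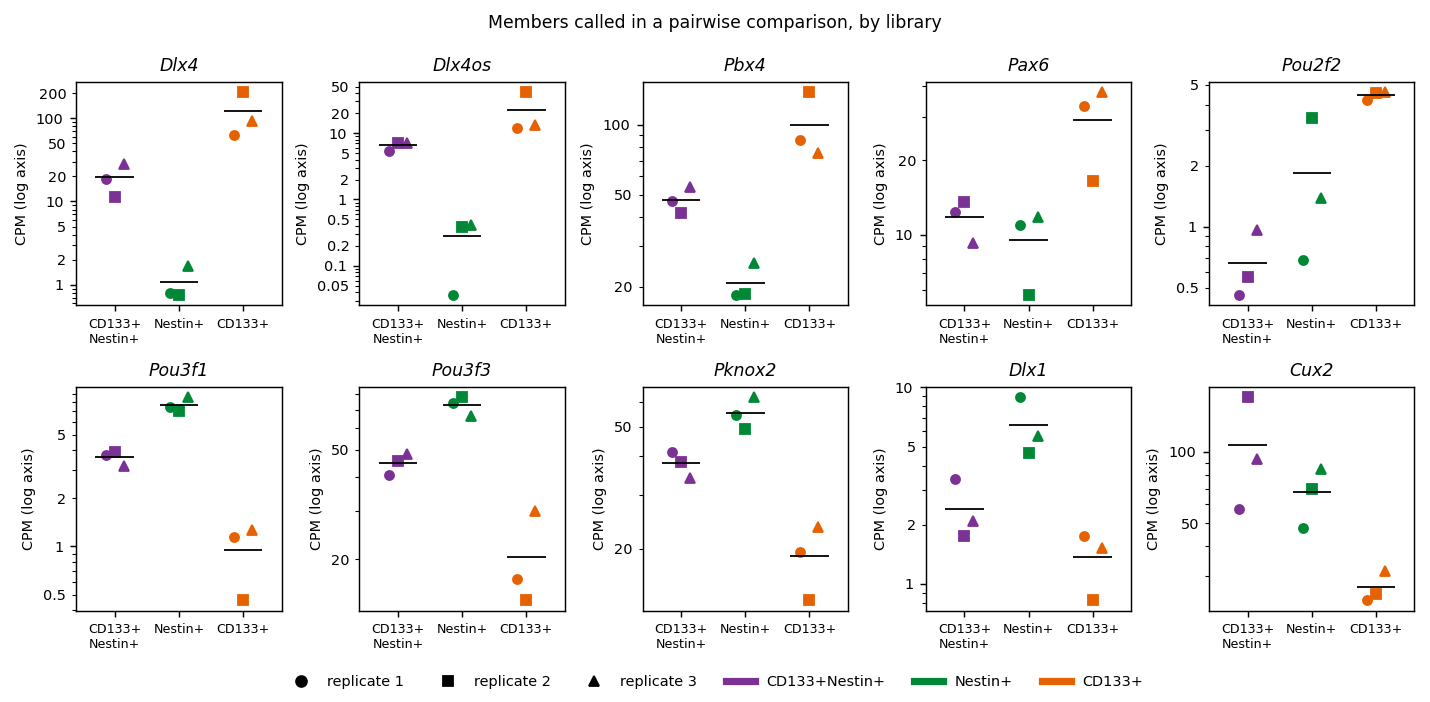
CPM (vertical log axes) in each of the 9 libraries for the 10 members called in at least 1 pairwise comparison, by population; shapes are replicates and bars are group means. Dlx4, Dlx4os and Pbx4 were lowest in Nestin+ libraries and highest in CD133+ libraries, and Pou3f1, Pou3f3 and Pknox2 ran the other way, with CD133+Nestin+ libraries between.

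Dlx4 had the widest difference of all members. Dlx genes are homeobox genes of the ventral forebrain and branchial arches, and mouse Dlx4 is known from the branchial arches and the placenta. It was at 18.8, 11.2 and 28.5 CPM in CD133+Nestin+ libraries, 0.788, 0.75 and 1.66 CPM in Nestin+ libraries, and 63, 208 and 92.3 CPM in CD133+ libraries. No library of one population overlapped another. Its change was -5.73 ± 0.46 (SE, 95% interval -6.74 to -4.72) in Nestin+ against CD133+ cells, with a limma adjusted p of 6.27e-05. The group mean of CD133+ libraries was 114 times that of Nestin+ libraries. Against Nestin+ cells, CD133+Nestin+ cells were higher by 3.25 ± 0.46 (limma adjusted p = 0.00397), and both of these calls held under all 20 alternatives tried. Against CD133+ cells, the change in CD133+Nestin+ cells was -2.49 ± 0.46 (limma adjusted p = 0.017). That call was lost without CD133+ replicate 2 (0.0641) or CD133+ replicate 3 (0.0661) and held without CD133+Nestin+ replicate 2 (0.041).

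Dlx4os is transcribed from the opposite strand and overlaps the exons of Dlx4 by 79 bases. Dlx4 lies at chr11:95140447-95146263 on the minus strand and Dlx4os at chr11:95145052-95159047 on the plus strand (GENCODE M21, GRCm38, the assembly of the mm10 build). It was at 5.36, 7.22 and 7.06 CPM in CD133+Nestin+, 0.0361, 0.391 and 0.408 CPM in Nestin+, and 11.9, 42.1 and 13.1 CPM in CD133+ libraries. The 3 populations did not overlap, and Nestin+ replicate 1 was below the level of 3 reads. It was lower in Nestin+ than in CD133+ cells (-3.97 ± 0.45, limma adjusted p = 0.000299) and higher in CD133+Nestin+ than in Nestin+ cells (2.57 ± 0.45, limma adjusted p = 0.0112). The second call was lost without CD133+Nestin+ replicate 3 (0.0584) or Nestin+ replicate 2 (0.0537) and held without CD133+Nestin+ replicate 2 (2.5 ± 0.49, 0.026). The sources used here do not give whether strand was used in counting, so reads of Dlx4 and Dlx4os where they overlap cannot be told apart.

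Pbx4, a TALE factor that in the mouse is known mainly from the testis, shared the order of Dlx4. It lies at chr8:69832491-69872292. It was at 46.7, 41.8 and 53.7 CPM in CD133+Nestin+, 18.4, 18.6 and 25.3 CPM in Nestin+, and 85.7, 139 and 75.7 CPM in CD133+ libraries, with no overlap. Per kilobase of exon it had the highest mean of the members with an exon length, 25.3 CPM, ahead of Dlx4 at 14.5. Pbx4 was lower in Nestin+ than in CD133+ cells (-2.18 ± 0.28, limma adjusted p = 0.000574), under all 20 alternatives. It was higher in CD133+Nestin+ than in Nestin+ cells (1.16 ± 0.28, limma adjusted p = 0.0479), a call that was lost when any 1 library other than CD133+ replicate 2 was left out (0.0543 to 0.204).

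Dlx4, Dlx4os and Pbx4 moved with the ependymal markers. Nestin+ cells had all 8 ependymal markers lower than CD133+ cells, all 8 were higher in CD133+Nestin+ than in Nestin+ cells, and 1 was lower in CD133+Nestin+ than in CD133+ cells. Foxj1, the regulator of motile cilia, was at 149, 127 and 185 CPM in CD133+Nestin+, 40.4, 28 and 27.4 CPM in Nestin+, and 184, 421 and 177 CPM in CD133+ libraries. The library with the most Foxj1, CD133+ replicate 2, also had the most Dlx4, Dlx4os and Pbx4. The part of ependymal cells in these results was not tested.

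Pax6 and Pou2f2 were highest in the CD133+ population. Pax6, a paired-domain factor of forebrain patterning and eye development (chr2:105668900-105697364), was at 12.4, 13.6 and 9.3 CPM in CD133+Nestin+, 11, 5.7 and 11.8 CPM in Nestin+, and 33.1, 16.5 and 37.9 CPM in CD133+ libraries. Every CD133+ library was above every other library, and the other populations overlapped. Its change in Nestin+ against CD133+ cells was -1.5 ± 0.38 (limma adjusted p = 0.0245). It was not called without Nestin+ replicate 2 (0.111), CD133+ replicate 1 (0.0812) or CD133+ replicate 3 (0.109). In CD133+Nestin+ against CD133+ cells it was at -1.17 ± 0.38 (limma adjusted p = 0.177).

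Pou2f2 encodes Oct-2, a POU factor best known from B cells. It was at 0.459, 0.563 and 0.962 CPM in CD133+Nestin+, 0.687, 3.42 and 1.39 CPM in Nestin+, and 4.2, 4.54 and 4.63 CPM in CD133+ libraries. The CD133+ libraries were above all others. The change in CD133+Nestin+ against CD133+ cells was -1.73 ± 0.37 (limma adjusted p = 0.033), and it was not called when any library other than Nestin+ replicate 1 or 2 was left out (0.06 to 0.136), CD133+Nestin+ replicate 2 included (0.06). Microglia and macrophage markers moved with it between these populations, since 10 of 10 were lower in CD133+Nestin+ than in CD133+ cells. Within each of the populations, however, replicate 1 had the highest sum of these markers and the lowest Pou2f2. All 4 endothelial markers tested were lower too. The B and T lymphocyte list had 1 of 8 markers listed, at 0.0332 to 0.758 CPM over all libraries. Mural and fibroblast markers (7 of 10 listed) summed to 117 to 176 CPM in CD133+Nestin+, 202 to 278 CPM in Nestin+ and 740 to 1510 CPM in CD133+ libraries, and erythroid markers (5 of 6) to 60.6 to 118, 24.4 to 344 and 783 to 1540 CPM in the same order. The part of these cell types in the Pax6 and Pou2f2 results was not tested.

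The members higher in Nestin+ cells included a pair of class III POU genes. Pou3f1 (Oct-6), known for its role in Schwann cell myelination, was at 3.73, 3.91 and 3.18 CPM in CD133+Nestin+, 7.49, 7.03 and 8.6 CPM in Nestin+, and 1.14, 0.46 and 1.26 CPM in CD133+ libraries. The populations did not overlap. It lies at chr4:124656807-124660655, and its exons overlap those of an antisense gene, Gm2164, by 330 bases. Its change in Nestin+ against CD133+ cells was 2.18 ± 0.31 (limma adjusted p = 0.00101), and the Nestin+ mean was 8.07 times the CD133+ mean.

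Pou3f3 (Brn-1), a factor of neural progenitors and cortical neurons (chr1:42695768-42703176), was at 40.5, 45.4 and 48.4 CPM in CD133+Nestin+, 73.9, 77.8 and 66.2 CPM in Nestin+, and 17, 14.2 and 30.1 CPM in CD133+ libraries. The populations again did not overlap. The change in Nestin+ against CD133+ cells was 1.85 ± 0.28 (limma adjusted p = 0.0016). The other class III genes were not called in a pairwise comparison. Pou3f2 (Brn-2), required for hypothalamic neuroendocrine neurons, averaged 66.1 ± 5.57 CPM in CD133+Nestin+, 77.5 ± 17.2 CPM in Nestin+ and 72.8 ± 17.0 CPM in CD133+ libraries (SD, n = 3 each), with a change of 0.09 in Nestin+ against CD133+ cells (95% interval -0.49 to 0.67). Pou3f4 (Brn-4) averaged 13.9 ± 6.21, 12.0 ± 4.77 and 5.31 ± 2.58 CPM in the same order, with an estimate of 1.05 ± 0.45 in Nestin+ against CD133+ cells (limma adjusted p = 0.189).

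Pknox2, a TALE partner of the PBX proteins (chr9:36890982-37147407), was at 41.5, 38.5 and 34 CPM in CD133+Nestin+, 54.7, 49.3 and 62.5 CPM in Nestin+, and 19.6, 13.6 and 23.6 CPM in CD133+ libraries. The populations did not overlap. Its change in Nestin+ against CD133+ cells was 1.53 ± 0.25 (limma adjusted p = 0.00264). Its relative Pknox1 averaged 25.6 ± 6.87 CPM in CD133+Nestin+, 17.3 ± 3.96 CPM in Nestin+ and 28.2 ± 5.04 CPM in CD133+ libraries (SD, n = 3 each), with an estimate of the other sign for the same comparison (-0.69 ± 0.29, limma adjusted p = 0.18). The calls for Pou3f1, Pou3f3 and Pknox2 held under all 20 alternatives.

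Dlx1, a factor of ventral forebrain interneurons (chr2:71528113-71533981), was at 3.4, 1.76 and 2.08 CPM in CD133+Nestin+, 8.94, 4.64 and 5.63 CPM in Nestin+, and 1.74, 0.822 and 1.52 CPM in CD133+ libraries. Nestin+ libraries were above all others, and the lowest CD133+Nestin+ library lay just above the highest CD133+ library. Dlx1 moved against Dlx4 of the same family, with a change of 1.63 ± 0.35 in Nestin+ against CD133+ cells (limma adjusted p = 0.0107), which was not called without CD133+ replicate 2 (0.0615). Its exons overlap those of the antisense transcript Dlx1as by 335 bases.

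Cux2, a cut-homeobox factor of upper-layer cortical neurons (chr5:121856366-122050102), was the member called higher in both populations that expressed the Nestin reporter. It was at 57.6, 170 and 93 CPM in CD133+Nestin+, 47.7, 70 and 85 CPM in Nestin+, and 23.7, 25.3 and 31.6 CPM in CD133+ libraries. All CD133+ libraries were below all others. The change was 1.83 ± 0.37 in CD133+Nestin+ against CD133+ cells (limma adjusted p = 0.0269) and 1.27 ± 0.37 in Nestin+ against CD133+ cells (limma adjusted p = 0.0494). These 2 comparisons share their CD133+ libraries. Without CD133+Nestin+ replicate 2, where Cux2 was highest, the first was 1.42 with an adjusted p of 0.0431. The first call was lost without CD133+Nestin+ replicate 3 (0.0827), Nestin+ replicate 2 (0.0541) or CD133+ replicate 1, 2 or 3 (0.0927, 0.108 and 0.0828). The second was lost without CD133+Nestin+ replicate 3 (0.0731), Nestin+ replicate 2 or 3 (0.151 and 0.176) or CD133+ replicate 1, 2 or 3 (0.124, 0.163 and 0.0869). Cux1 averaged 104 ± 12.6, 101 ± 21.1 and 107 ± 21.5 CPM in CD133+Nestin+, Nestin+ and CD133+ libraries (SD, n = 3 each).

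The 5 members higher in Nestin+ than in CD133+ cells moved with oligodendrocyte precursor and neuron markers in that comparison. Between CD133+Nestin+ and Nestin+ libraries Cux2 did not. Its mean was 107 CPM in CD133+Nestin+ and 67.6 CPM in Nestin+ libraries, a change not called, while both marker sums were lower in CD133+Nestin+ libraries. Of 7 listed precursor markers 5 were higher in Nestin+ than in CD133+ cells, and of 9 listed neuron markers 4 were. Pdgfra, the defining receptor of oligodendrocyte precursors, was at 168, 33.4 and 19.7 CPM in CD133+Nestin+, 427, 521 and 250 CPM in Nestin+, and 17.2, 27 and 31.8 CPM in CD133+ libraries. Tanycyte and astroglia markers (9 of 9) also summed to 3660 to 9730 CPM in CD133+Nestin+, 8030 to 14400 CPM in Nestin+ and 2160 to 7250 CPM in CD133+ libraries. The part of these cell types in the results was not tested.

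CD133+Nestin+ cells differed from CD133+ cells in 3 of the 46 tested members (6.52%, against 2.42% of all tested genes). Cux2 was the 1 higher member (2.17%, against 0.297% of genes), and Dlx4 and Pou2f2 were lower (4.35%, against 2.12%). The median change was 0.41 over the members and -0.06 over all genes, with 28 members above and 18 below 0. Median centring of the libraries called 4 members higher (0.465% of genes) and 2 lower (1.93%), and quantile normalization 3 higher (0.477%) and 2 lower (1.89%). With the replicate number as a block, 6 members were called (4.81% of genes). Of these 4 were higher (1.12% of genes) and 2 lower (3.69%). The 3 added were all higher: Pknox2 (1.0 ± 0.25, adjusted p = 0.0754 without the block and 0.0323 with it), Pou3f1 (1.26 ± 0.31, 0.0606 and 0.038) and Pou3f3 (1.16 ± 0.28, 0.0602 and 0.0304). Once CD133+Nestin+ replicate 2 was also left out of the blocked fit, none of these 3 was called (limma adjusted p = 0.0538 for Pknox2, 0.0501 for Pou3f1 and 0.0522 for Pou3f3), while Pax6 (-1.6 ± 0.23, 0.00334) and Emx2os (1.6 ± 0.33, 0.0209) were. Emx2os, the opposite-strand transcript of Emx2, was also called without that library and without the block (1.58 ± 0.32, limma adjusted p = 0.0366), against 1.17 with an adjusted p of 0.207 in the full set. Emx2os was at 2.07, 0.53 and 3.22 CPM in CD133+Nestin+ and only 0.114, 0.132 and 0.391 CPM in CD133+ libraries. The library left out thus held its lowest CD133+Nestin+ value. Its exons overlap those of Emx2 by 264 bases. Otx1, a factor of the fore- and midbrain, also separated these populations, at 11.3, 16.3 and 13.9 CPM in CD133+Nestin+ and 4.91, 4.54 and 7.31 CPM in CD133+ libraries, but was not called with or without the block (1.18 ± 0.3, limma adjusted p = 0.0797 and 0.056), nor without CD133+Nestin+ replicate 2 (1.06 ± 0.3, 0.127).

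CD133+Nestin+ cells differed from Nestin+ cells in 3 members, Dlx4, Dlx4os and Pbx4, all higher (6.52%, against 3.13% of all tested genes called and 2.87% called higher). None of the 46 was called lower by limma, where 0.254% of genes were, and 6 were lower at an unadjusted p under 0.05. Median centring called 3 higher (2.89% of genes) and 1 lower (0.304%), and quantile normalization 2 higher (2.76%) and 1 lower (0.335%). The median change was 0.1 over the members and -0.04 over all genes. With the block 6 members were called (6.09% of genes), of which 4 were higher (4.97% of genes) and 2 lower (1.12%). Barhl2 was added on the higher side, and Six3os1 and Dlx1 were the lower ones. When CD133+Nestin+ replicate 2 was left out of the blocked fit, these 3 stayed called and Pou3f1 was called lower as well (-1.09 ± 0.27, limma adjusted p = 0.0356).

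Six3os1, the opposite-strand transcript of Six3, was at 28.9, 22.6 and 27.6 CPM in CD133+Nestin+, 49.8, 58 and 56.7 CPM in Nestin+, and 40.1, 24.4 and 35.4 CPM in CD133+ libraries. Every Nestin+ library was above every other. Its change in CD133+Nestin+ against Nestin+ cells was -1.03 ± 0.25, with an adjusted p of 0.0509 without the block and 0.0207 with it. Without CD133+Nestin+ replicate 2 it was -0.93 ± 0.25 (0.0907), or -1.01 ± 0.23 with the block (0.0233). In Nestin+ against CD133+ cells it was 0.73 ± 0.25 (0.0894 and 0.0409). Its exons overlap those of Six3 by 106 bases on the opposite strand.

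Dlx1 was lower in CD133+Nestin+ than in Nestin+ cells with the block (-1.11 ± 0.35, adjusted p = 0.147 without it and 0.04 with it), and with the block this held without CD133+Nestin+ replicate 2 (-1.14 ± 0.26, 0.0265). Barhl2, a BarH-like factor of the developing diencephalon, was at 1.96, 12.9 and 5.28 CPM in CD133+Nestin+, 0.825, 1.04 and 0.555 CPM in Nestin+, and 0.628, 2.1 and 1.35 CPM in CD133+ libraries. Its change in CD133+Nestin+ against Nestin+ cells was 1.83 ± 0.5 (adjusted p = 0.0892 without the block and 0.0206 with it), and its highest value was in CD133+Nestin+ replicate 2. Without that library the change was 1.26 ± 0.39 (0.151), or 1.42 ± 0.32 with the block (0.0258).

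In Nestin+ against CD133+ cells the block called 12 of 46 members (19.2% of genes), 8 of them higher (6.06% of genes) and 4 lower (13.1%). Besides Six3os1, Dlx6os1 was among the members it added. Dlx6os1, an opposite-strand transcript at the Dlx5 and Dlx6 locus, was at 1.81, 1.79 and 0.773 CPM in CD133+Nestin+, 7.04, 1.92 and 1.54 CPM in Nestin+, and 0.856, 0.197 and 0.722 CPM in CD133+ libraries (1.32 ± 0.44, 0.0844 and 0.0292).

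**Figure D3:**
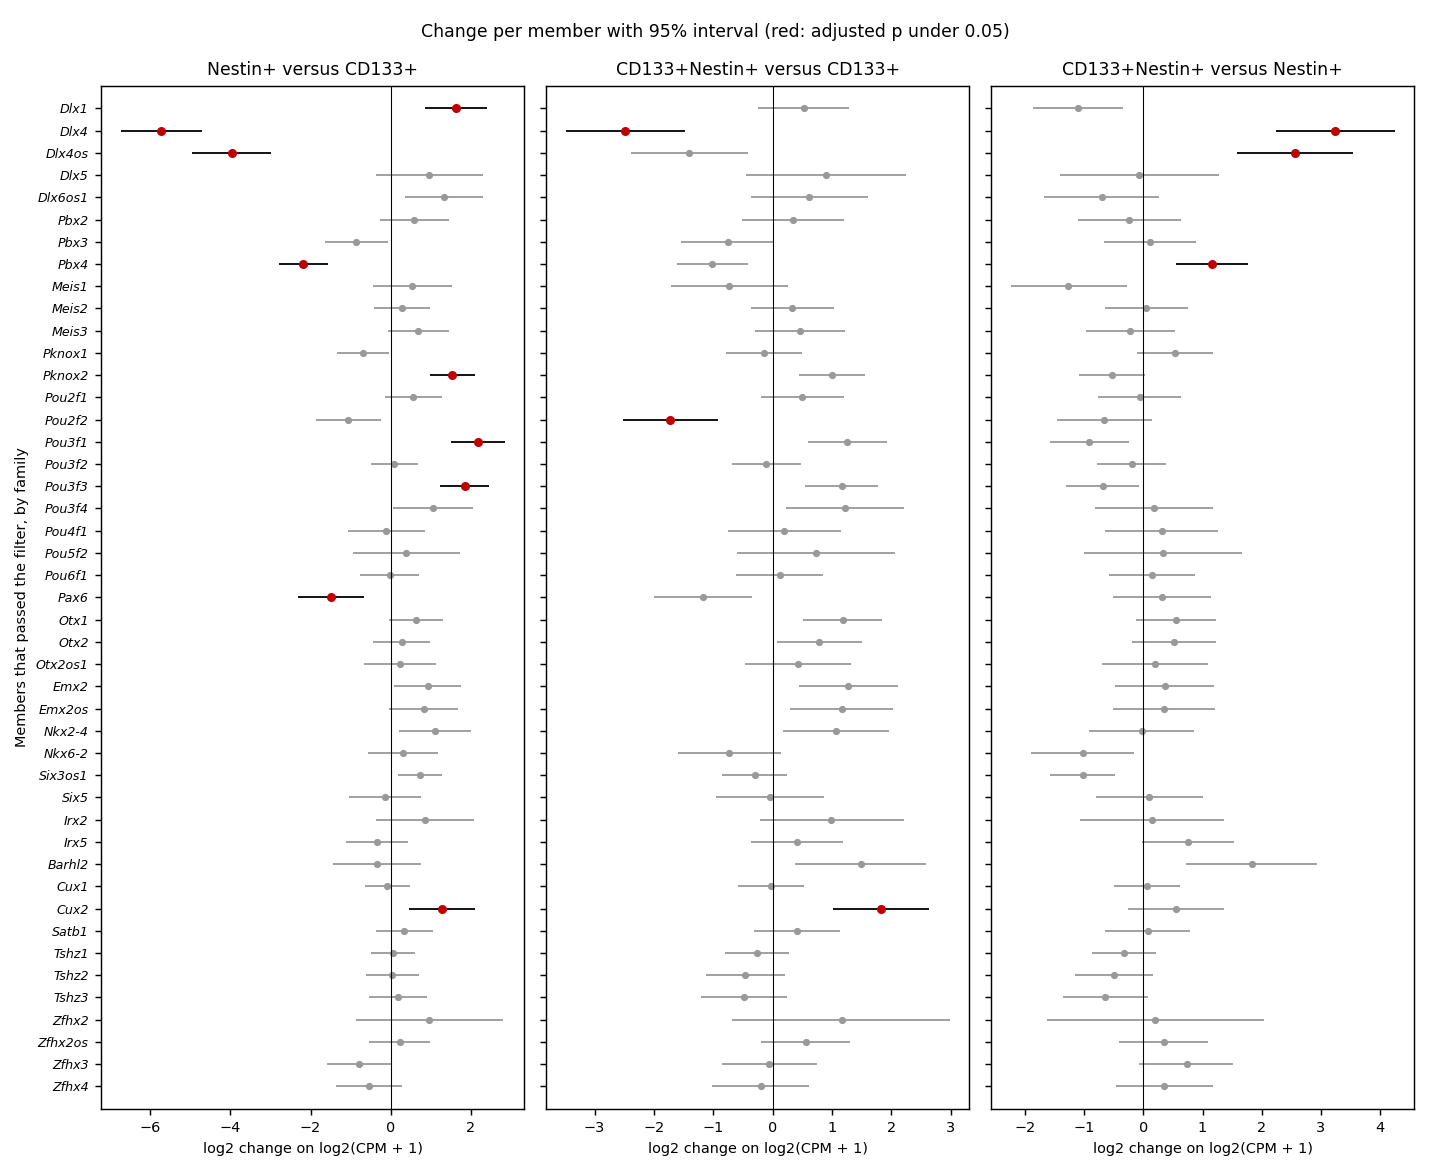
Change on log2(CPM + 1) of 45 of the tested members (rows, by family) in each pairwise comparison, with 95% intervals; red points were called at an adjusted p under 0.05 without the block. Called members lie on both sides of 0 in Nestin+ against CD133+ cells, and the 3 called in CD133+Nestin+ against Nestin+ cells all lie above it.

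Over the 3 groups together, the limma F test called 10 members (21.7%, against 9.5% of all tested genes) and 13 with the block (16.5% of genes). The 10 included Six3os1 (limma adjusted p = 0.0493), which no pairwise comparison called without the block, and not Pax6 (0.0543). The 10 members called in any pairwise comparison were a slightly different set: Cux2, Dlx1, Dlx4, Dlx4os, Pax6, Pbx4, Pknox2, Pou2f2, Pou3f1 and Pou3f3. In 8 of these 10 the mean of CD133+Nestin+ libraries lay between those of the other populations. The 10 were chosen by calls on these same values, which favours such an order, and no share over all called genes was computed. Over all 46 tested members the mean of CD133+Nestin+ libraries lay between the others in 18 (39.1%), and in 44.7% of all tested genes. Libraries of the Nestin+ and CD133+ populations did not overlap in 22 members (47.8%, against 33.0% of genes). Those of CD133+Nestin+ and CD133+ did not overlap in 16 (34.8%, against 17.5%), and those of CD133+Nestin+ and Nestin+ in 12 (26.1%, against 17.3%).

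**Figure D4:**
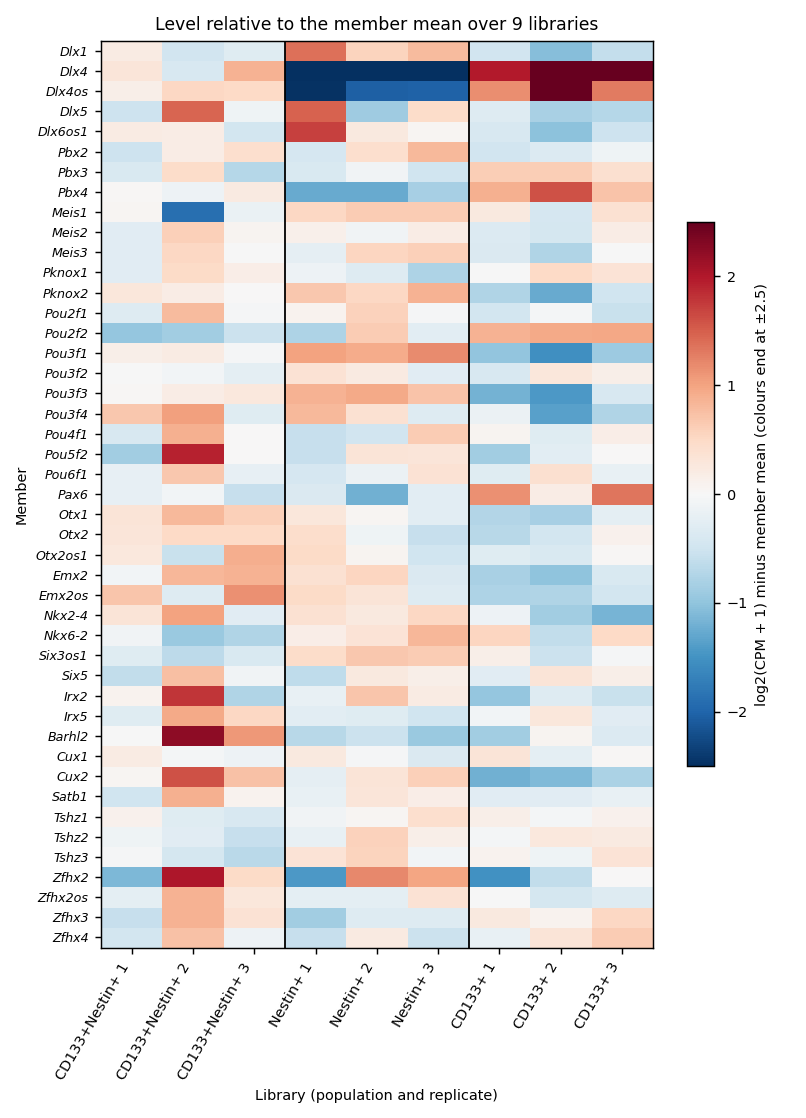
Level of 45 of the tested members (rows) in each library (columns), as log2(CPM + 1) minus the member's mean over the 9 libraries; colours end at ±2.5. Dlx4, Dlx4os and Pbx4 are blue in Nestin+ and red in CD133+ libraries, and CD133+Nestin+ replicate 2 holds many of the highest values, among them Barhl2, Cux2, Irx2, Pou5f2 and Zfhx2.

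The remaining families had no called member in the main fit. Of the MEIS family, Meis3 had the highest mean per kilobase of exon (4.52 CPM). Meis1, a TALE partner of PBX proteins, was at 31.9, 7.65 and 27.2 CPM in CD133+Nestin+, 44.6, 48.4 and 48.6 CPM in Nestin+, and 36.6, 22.7 and 40.2 CPM in CD133+ libraries. Its estimate of -1.27 ± 0.45 in CD133+Nestin+ against Nestin+ cells (limma adjusted p = 0.209) included 1 low library, CD133+Nestin+ replicate 2, and without it was -0.66 ± 0.27 (0.303). Meis2 averaged 11.2 ± 3.74, 10.4 ± 1.12 and 8.53 ± 2.34 CPM in CD133+Nestin+, Nestin+ and CD133+ libraries (SD, n = 3 each).

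Otx2, a head organiser gene also required in the choroid plexus, led the OTX family per kilobase of exon (4.08 CPM) and was at 20.5, 23.5 and 23.5 CPM in CD133+Nestin+, 22.7, 15.1 and 10.6 CPM in Nestin+, and 9.79, 11.6 and 17.7 CPM in CD133+ libraries. Its estimate in CD133+Nestin+ against CD133+ cells was 0.78 ± 0.33 (limma adjusted p = 0.337). Emx2, a patterning gene of the dorsal forebrain, was at 2, 4.54 and 4.74 CPM in CD133+Nestin+, 3.09, 3.54 and 1.45 CPM in Nestin+, and 0.799, 0.559 and 1.41 CPM in CD133+ libraries. All CD133+ libraries were below all others, and the estimate was 1.27 ± 0.38 in CD133+Nestin+ against CD133+ cells (limma adjusted p = 0.14), or 1.13 ± 0.39 without CD133+Nestin+ replicate 2 (0.242). Choroid plexus markers (5 of 10 listed) summed to 133 to 172 CPM in CD133+Nestin+, 21.9 to 25.4 CPM in Nestin+ and 69.1 to 115 CPM in CD133+ libraries. That sum includes the homeobox genes Msx1 and Lmx1a, and without them it was 86.3 to 98.9, 12.4 to 15.8 and 47.9 to 83.6 CPM in the same order.

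Nkx2-4, close in sequence to the hypothalamic gene Nkx2-1, averaged 5.34 ± 2.82 CPM in CD133+Nestin+, 5.08 ± 0.588 CPM in Nestin+ and 1.97 ± 1.16 CPM in CD133+ libraries (SD, n = 3 each). Its estimate was 1.1 ± 0.4 in Nestin+ against CD133+ cells (limma adjusted p = 0.118). Nkx6-2, a factor of oligodendrocytes, averaged 0.708 ± 0.549, 2.45 ± 0.872 and 1.92 ± 1.13 CPM in the same order. Zfhx4 led the ZFHX family per kilobase of exon (1.41 CPM). Zfhx3, a factor of the suprachiasmatic nucleus, averaged 27.7 ± 13.3 CPM in CD133+Nestin+, 15.2 ± 3.31 CPM in Nestin+ and 26.8 ± 4.2 CPM in CD133+ libraries (SD, n = 3 each). Zfhx2 varied with the replicate number, at 4.22, 45.1 and 14.9 CPM in CD133+Nestin+, 3.22, 25.1 and 21.6 CPM in Nestin+, and 3, 6.42 and 10.5 CPM in CD133+ libraries. In each population replicate 1 was the lowest. Zfhx2, Pbx2, Pou5f2 and Six5 had all replicate 1 libraries below the 6 others (8.7% of the tested members and 9.0% of all tested genes), and Cux1 had them above (2.17% and 8.62%).

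Tshz1, a zinc-finger homeobox factor, led its family per kilobase of exon (5.39 CPM) and averaged 27.3 ± 5.46 CPM in CD133+Nestin+, 34.5 ± 6.77 CPM in Nestin+ and 32.8 ± 2.33 CPM in CD133+ libraries (SD, n = 3 each). Satb1, a chromatin organiser, averaged 48.4 ± 23.8, 43.1 ± 7.57 and 33.4 ± 1.42 CPM in the same order. Irx5 led the IRX family per kilobase of exon (0.618 CPM), and averaged 2.86 ± 1.54, 1.17 ± 0.186 and 1.77 ± 0.546 CPM. The POU genes Pou2f1, Pou4f1, Pou5f2 and Pou6f1 and the members Pbx2, Pbx3, Six5, Dlx5, Irx2, Tshz2, Tshz3, Otx2os1, Emx2os and Zfhx2os were not called with or without the block.

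For this list and those below, the shares of all tested genes called higher and lower were as follows. They were 2.45% and 9.42% in Nestin+ against CD133+ cells, and 6.06% and 13.1% with the block. In CD133+Nestin+ against CD133+ cells they were 0.297% and 2.12%, and 1.12% and 3.69% with the block. In CD133+Nestin+ against Nestin+ cells they were 2.87% and 0.254%, and 4.97% and 1.12% with the block. Of 63 other homeobox genes outside these families, 25 were listed and 23 tested. In CD133+Nestin+ against Nestin+ cells 6 were higher and 0 lower by limma, with 4 lower at an unadjusted p under 0.05 and a median change of 0.0 over the list and -0.04 over all genes. Msx1, a homeobox gene of the dorsal midline, averaged 48.3 ± 14.4 CPM in CD133+Nestin+ and 5.36 ± 1.25 CPM in Nestin+ libraries (SD, n = 3 each), a change of 2.92 ± 0.34 (limma adjusted p = 0.0023). That call held when any 1 library was left out. Lmx1a (1.8 ± 0.29, 0.0081), Dbx1 (1.8 ± 0.35, 0.0196), Tgif1 (1.11 ± 0.25, 0.0361) and Lmx1b (1.43 ± 0.32, 0.0383) were also higher but lost their calls when single libraries were left out. Lmx1a was lost without Nestin+ replicate 2 (0.0531), and Dbx1 without CD133+Nestin+ replicate 3 or any Nestin+ library (0.0534 to 0.0887). Lmx1b was lost without CD133+Nestin+ replicate 3, CD133+ replicate 3 or any Nestin+ library (0.0745 to 0.152), and Tgif1 without any of those or CD133+Nestin+ replicate 2 (0.0666 to 0.155). Msx1 and Lmx1a are themselves 2 of the 5 listed choroid plexus markers, of which 4 were higher in CD133+Nestin+ than in Nestin+ cells, 2 of them among the 3 other markers. The part of choroid plexus cells in these results was not tested. In CD133+Nestin+ against CD133+ cells 3 were higher and 0 lower (median 0.27), with 5 higher and 0 lower at an unadjusted p under 0.05. Dbx1 (2.2 ± 0.35, limma adjusted p = 0.00789) and Msx1 (1.88 ± 0.34, 0.0144) were among them. Dbx1 held whichever library was left out, and Msx1 was lost without CD133+Nestin+ replicate 3 or CD133+ replicate 1 or 3 (0.0605 to 0.0735). In Nestin+ against CD133+ cells Gsx1, Zhx3 and Rax were higher and Tgif1 and Lmx1a lower (median 0.07), and with the block 4 genes were higher and 3 lower. Tgif1 and Lmx1a held whichever library was left out. Gsx1 was lost without replicate 2 or 3 of either population (0.0626 to 0.0985). Zhx3 was lost without CD133+Nestin+ replicate 3, Nestin+ replicate 1 or 3 or any CD133+ library (0.0504 to 0.134), and Rax without CD133+Nestin+ replicate 3, CD133+ replicate 2 or 3 or any Nestin+ library (0.0519 to 0.172). Tgif1, a TALE repressor, averaged 29.8 ± 4.65 CPM in Nestin+ and 94.0 ± 21.8 CPM in CD133+ libraries (-1.61 ± 0.25, limma adjusted p = 0.0017).

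Of 10 LIM cofactor genes, which encode partners of LIM-homeodomain proteins, Lmo2 (-3.26 ± 0.36, limma adjusted p = 0.000261) and Ssbp4 (-1.95 ± 0.36, 0.00472) fell in Nestin+ relative to CD133+ cells. Both were higher in CD133+Nestin+ than in Nestin+ cells (1.74 ± 0.36 and 1.62 ± 0.36, 0.0244 and 0.0351). With the block 2 LIM cofactor genes were called higher and 2 lower in Nestin+ against CD133+ cells, and 1 higher and 1 lower in CD133+Nestin+ against CD133+ cells, where none was called without it and 1 was higher and 1 lower at an unadjusted p under 0.05. Of the 8 genes for cofactors of SIX-family and PAX proteins, the Eya and Dach genes among them, limma called 0 in each comparison. At an unadjusted p under 0.05 it gave 1 higher and 2 lower in Nestin+ against CD133+ cells, 4 lower in CD133+Nestin+ against CD133+ cells and 1 lower in CD133+Nestin+ against Nestin+ cells. With the block, 2 were called higher and 1 lower in Nestin+ against CD133+ cells. Of 6 tested Groucho corepressors Tle2 was higher in Nestin+ than in CD133+ cells (2.0 ± 0.49, limma adjusted p = 0.0206), and with the block 2 were. The block also called Tle2 higher in CD133+Nestin+ against CD133+ cells (1.83 ± 0.49, adjusted p = 0.0884 without the block and 0.00877 with it). In Nestin+ against CD133+ cells the median changes were 0.26 for the LIM cofactors, -0.24 for the SIX-family and PAX cofactors and 0.4 for the Groucho genes. In CD133+Nestin+ against CD133+ cells they were -0.23, -0.68 and 0.42 in the same order.

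Of 28 tested regional transcription factors of other classes, 3 were higher and 3 lower in Nestin+ than in CD133+ cells, with a median of -0.16, and 6 were higher and 6 lower with the block. Relative to CD133+ cells, 0 were higher and 1 lower in CD133+Nestin+ cells, with 5 higher and 6 lower at an unadjusted p under 0.05, and the block called 1 higher and 3 lower. Among the higher ones were Sall3 (1.31 ± 0.27, limma adjusted p = 0.0088) and Tcf7l2 (1.04 ± 0.3, 0.0454), and among the lower ones Gata3 (-1.25 ± 0.34, 0.0356) and Fezf1 (-1.48 ± 0.41, 0.0368). Foxa1 was higher in CD133+Nestin+ than in Nestin+ cells (2.02 ± 0.44, limma adjusted p = 0.0341). Of 8 tested genes of GABAergic neurons, the class that Dlx genes help specify, 2 were higher and 2 lower in Nestin+ than in CD133+ cells, with Gsx1 higher (1.15 ± 0.28, limma adjusted p = 0.0211) and Calb2 (-2.57 ± 0.37, 0.00127) and Calb1 (-1.95 ± 0.49, 0.0254) lower. In CD133+Nestin+ cells Npy, a neuropeptide, was higher than in CD133+ cells (1.5 ± 0.31, limma adjusted p = 0.0279) and than in Nestin+ cells (1.63 ± 0.31, 0.0159). Calb1 was higher in CD133+Nestin+ than in Nestin+ cells (3.2 ± 0.49, limma adjusted p = 0.0062). Of the genes named here from the cofactor, regional and GABAergic lists, Lmo2, Ssbp4, Sall3 and Calb2 in Nestin+ against CD133+ cells and Calb1 in CD133+Nestin+ against Nestin+ cells kept their calls whichever library was left out, and the other calls named were lost in at least 1 such fit. Without CD133+Nestin+ replicate 2, Ssbp4 in CD133+Nestin+ against Nestin+ cells was not called (1.54 ± 0.39, limma adjusted p = 0.0739), and the other list genes named in comparisons with the CD133+Nestin+ group and called without the block, Tgif1 apart, kept their calls.

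In the authors' deposited table, which compares the same groups, a false discovery rate of at most 0.05 was given for 8 members between Nestin+ and CD133+ cells, where 9.07% of all 18329 genes had one. It was given for 2 members between CD133+Nestin+ and Nestin+ cells (2.59% of genes) and for 0 between CD133+Nestin+ and CD133+ cells (0.955% of genes). For Dlx4 the authors' deposited table gave 0.000149 between Nestin+ and CD133+ cells, and for Cux2 it gave 0.0641.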

How the data were processed

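The 9 libraries were grouped by the cell population in the labels, and the sort number, equal to a passage number in the labels, served as replicate number. Per the submitters' processing notes the build was mm10 and the tools included STAR 2.5.3a, Partek 8.0, bcl2fastq and limma, whose roles are not stated. The gene annotation and the counting rule are not given in the sources used here. The authors deposited values without a stated unit, taken here as CPM normalized by the authors to each library's reads, plus 0.0001, because low values lay on steps of 1 read, but 43.1% to 57.1% of low values were whole multiples within 0.02 reads, so no count test was run. The rows together made up 65.9% to 87.6% of each library's CPM. The lowest share was that of CD133+Nestin+ replicate 2, which had 30 genes at the offset of 0.0001, against 3 to 8 in the others. Replicate 1 libraries were at 87.3% to 87.6% and all others at 65.9% to 81.0%. A second table deposited by the authors held, per the file headers, ratios of group means with a p-value and false discovery rate for every pair of groups, and it was used only as their result.

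The filter of 1 CPM in 3 or more libraries kept 16143 genes and removed 2186. Values were transformed as log2(CPM + 1), with a pseudocount of 1, which understates changes of low genes, and the 3 group means were fitted in limma 3.58.1 under R 4.3.3 with trend and robust empirical Bayes moderation (residual degrees of freedom 6, prior median 4.93). The fit was tested on simulated data. Named were all members past the threshold in a pairwise comparison, the highest member per kilobase in each other family and up to 6 called genes per list. Positions are from GENCODE M21. The members and lists were chosen with earlier results of these data known. A few members and list genes are counted but not reported here by name.

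The replicate numbers pair the samples in the data: after removal of group means, libraries with the same number correlated at 0.204 to 0.73 (9 pairs), and at -0.527 to 0.314 with different numbers (18 pairs). The labels do not say what the number shares. Values with the replicate block therefore stand beside the members' results where they change a call, and beside the lists as counts.

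Alternatives were quantile normalization, median centring, library weights, a replicate block, a smaller pseudocount (0.1), a stricter filter (5 CPM) or none, no trend or robust prior, only the 6 libraries compared, only the libraries numbered 2 and 3, and leaving out each library. The block without CD133+Nestin+ replicate 2 was added after seeing the data.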

Additional observations from a re-analysis of the deposited data

How the results depend on the processing

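The count of called members in Nestin+ against CD133+ cells, 9 in the main fit, was 8 to 12 under every whole-set alternative except library weights (20, in a fit whose weights did not converge) and the replicate block without CD133+Nestin+ replicate 2 (22), and 7 to 13 with 1 library left out. In CD133+Nestin+ against CD133+ cells 3 became 6 with the replicate block and with median centring, 5 with quantile normalization, with library weights and with the block without CD133+Nestin+ replicate 2, and 1 with only the 6 libraries compared. With 1 library left out it was 0 to 3, with 0 without CD133+ replicate 2 and 1 without CD133+Nestin+ replicate 3 or CD133+ replicate 1 or 3. In CD133+Nestin+ against Nestin+ cells 3 became 6 with the replicate block and 7 with the block without CD133+Nestin+ replicate 2. It was 1 to 4 with 1 library left out, with 1 without CD133+Nestin+ replicate 3 or Nestin+ replicate 2. Over the 3 groups together 10 became 19 with library weights and 18 with the block without CD133+Nestin+ replicate 2, and 6 to 12 with 1 library left out, with 6 without CD133+Nestin+ replicate 3 or CD133+ replicate 1 or 3. The causes were not tested.

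All members called in the main fit stayed called with the replicate block, which changed no other member's call than those given with it. Of 298 checks of a called member under an alternative, 251 kept the call, 47 lost it and 0 changed direction. Besides the fits without 1 library, Cux2 in Nestin+ against CD133+ cells lost its call with a pseudocount of 0.1 (adjusted p = 0.0542), with no filter (0.0616) and with no trend or robust prior (0.0621). In CD133+Nestin+ against CD133+ cells Cux2 (0.0746) and Dlx4 (0.0526) lost theirs with only the 6 libraries compared, and Pou2f2 with a pseudocount of 0.1 (0.0644). Pbx4 in CD133+Nestin+ against Nestin+ cells lost its call with no filter, quantile normalization, no trend or robust prior and only the 6 libraries compared (0.0505 to 0.0681). With only the libraries numbered 2 and 3, Pax6 (0.0878), Pou2f2 (0.0958) and Pbx4 in CD133+Nestin+ against Nestin+ cells (0.203) were not called. Median centring raised the median of all genes by 0.135 in Nestin+ against CD133+ cells and by 0.128 in CD133+Nestin+ against CD133+ cells, and quantile normalization by 0.145 and 0.122. The split of called members was then 7 higher and 4 lower in the first comparison under both, against 5 and 4. Depth limits members near 1 CPM, since 1 read was worth about 0.03 CPM, and 3 libraries per group limit the rest.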
